A study of Mus musculus with 6 samples.

Results

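The genes described here encode ESCRT, the endosomal sorting complexes required for transport, with the ATPase and accessory proteins that work beside them. They were taken by symbol from a list of 35 names and grouped as ESCRT-0, ESCRT-I, ESCRT-II, ESCRT-III, VPS4 and accessory genes. All 35 were measured, out of 18029 genes with a named probe set, and together they had 76 of the 38195 probe sets tested. A probe set is a group of short array probes read as 1 value, and each gene was represented by its brightest probe set, called the main one. Signals are on a log2 scale, on which a difference of 1 is a doubling of signal.

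ESCRT proteins carry ubiquitin-tagged membrane receptors into vesicles that bud inward from the endosome membrane, which makes a multivesicular body. Fusion of that body with a lysosome degrades the receptors and ends their signalling. TMBIM1, a membrane protein of endosomes and lysosomes, has been described as binding TSG101, a subunit of ESCRT-I, and as steering receptors toward lysosomal breakdown. The comparison below asks whether transcripts of this machinery differ in the pressure-loaded heart when Tmbim1 is deleted.

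Hearts came from 6 mice of the C57BL/6 background, 3 labelled Tmbim1 KO and 3 labelled Flox; wild type, with 1 Affymetrix array per heart. Each mouse was taken at 8 weeks of age, and its aorta had been surgically constricted (banding, "aortic binding surgery" in the labels) for 2 weeks. What drives the deletion, and in which cells, is not given in the sources used here, and hearts without banding were not analysed here. Tmbim1 was lower in each knockout heart, at 7.53, 7.49 and 7.56 against 8.58, 8.38 and 8.33 in wild type hearts. Its difference was -0.91 (SE 0.10, n = 3 in each group, limma adjusted p = 0.00579), and without knockout replicate 2 the adjusted p was 0.0512. Cardiomyocyte markers stood near the top of the scale, with Actc1, cardiac actin, at 13.65 ± 0.02 (SD, n = 3) and Tnnt2, cardiac troponin T, at 13.29 ± 0.02 (SD, n = 3) in wild type hearts.

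None of the 35 ESCRT genes passed the limma test at an adjusted p of 0.05, where 0.549% of all main probe sets did. Their smallest adjusted p was 0.379. For 35 genes a count of 0 is near the 0.549% share. Among the main probe sets that passed, the smallest difference was 0.52 in size, larger than that of any ESCRT gene. At an unadjusted p under 0.05 stood 1 of the 35, Pdcd6ip, against 11.5% of all main probe sets, and against 16.3% of the 8754 that lay within the members' range of mean signal (5.06 to 10.06). In these whole-heart samples fewer cells of a type and less RNA per cell cannot be told apart.

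The differences were small in both directions. They ran from -0.18 for Vps4a to 0.30 for Pdcd6ip, and 23 of the 35 were within 0.1 of zero. The median was 0.033 for the 35 genes and -0.0020 for all main probe sets, and 20 of the 35 were positive, where 49.4% of all main probe sets were. Every 95% interval of an ESCRT gene, taken singly, lay within a 1.5-fold change either way, as did 89.3% of the intervals of all main probe sets. The lowest bound was that of Vps25, at -0.50 (1.41-fold lower), and the highest that of Chmp3, at 0.58 (1.5-fold higher). The median SD within groups was 0.110 for the ESCRT genes and 0.132 for main probe sets in the same signal range.

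**Figure D1:**
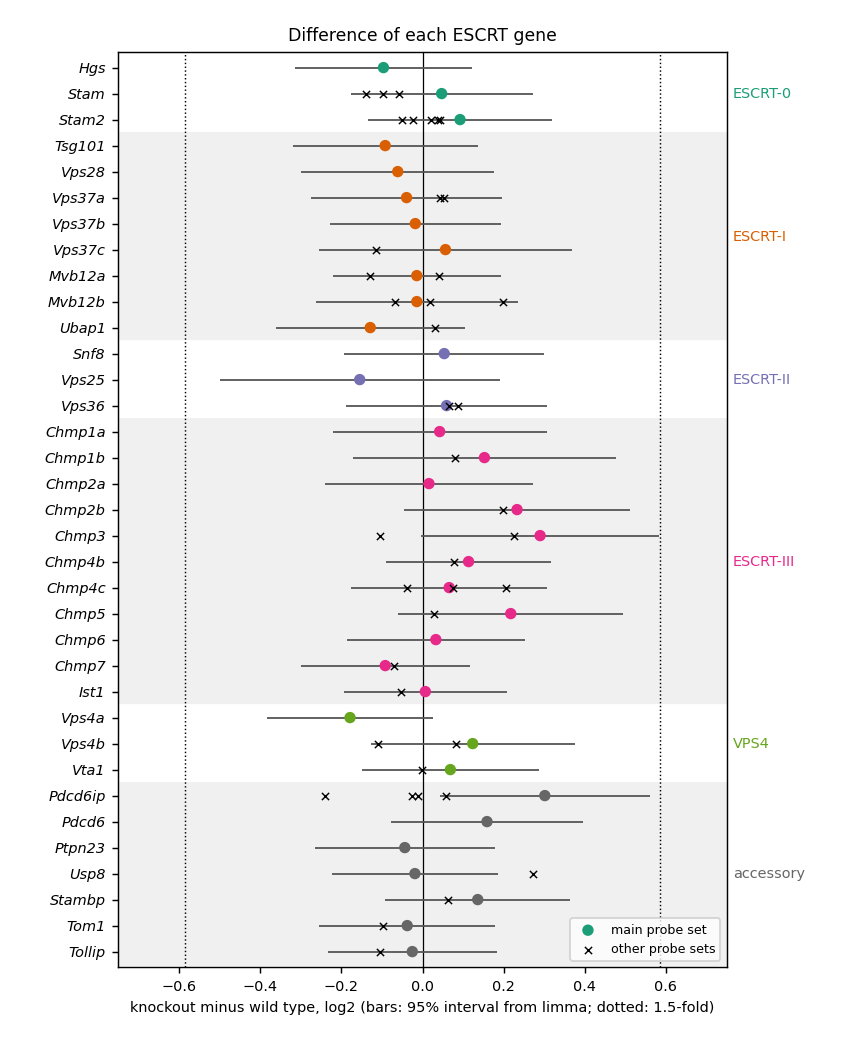
Knockout minus wild type (log2) for each of the 35 genes, by complex. Coloured points are main probe sets with their 95% limma intervals, crosses are other probe sets of the same gene and dotted lines mark 1.5-fold. All 35 intervals stay inside the dotted lines, and that of Pdcd6ip is the 1 that does not reach zero.

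**Figure D2:**
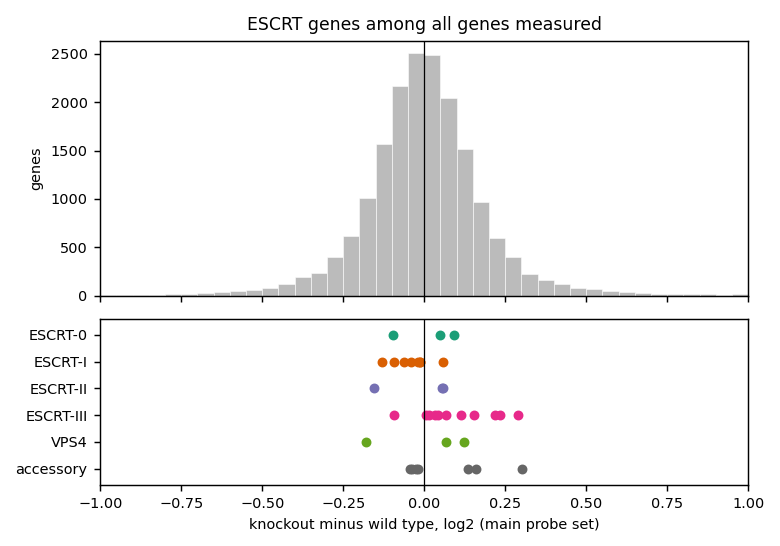
Upper panel, the number of genes in each 0.05-wide bin of knockout minus wild type (log2, main probe sets), between -1 and 1. Lower panel, the ESCRT genes by complex on the same axis; the 35 points lie between -0.18 and 0.30, in the central part of the distribution.

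ESCRT-0 gathers ubiquitinated cargo at the endosome and recruits ESCRT-I. Hgs, its subunit that binds the endosomal lipid phosphatidylinositol 3-phosphate and ubiquitin, had signals of 6.29, 6.17 and 6.12 in wild type hearts and 6.15, 6.00 and 6.14 in knockout hearts. The groups overlapped, and the difference was -0.10 (SE 0.10, adjusted p = 0.823). Its partners Stam and Stam2, which also bind ubiquitin, were at 0.05 (SE 0.10) and 0.09 (SE 0.10) and did not pass. The 3 dimmer probe sets of Stam were negative, between -0.14 and -0.06, and the 5 of Stam2 lay between -0.05 and 0.04.

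ESCRT-I links the cargo-binding step to the later complexes. Tsg101, its subunit that recognises both ubiquitin and short peptide motifs of partner proteins, was measured by 1 probe set. It stood at 7.77, 7.87 and 7.80 in wild type hearts and 7.76, 7.84 and 7.57 in knockout hearts. Knockout replicates 1 and 2 lay close to the wild type values, and knockout replicate 3 was the lowest of the 6. The difference was -0.09 (SE 0.10, 95% interval -0.32 to 0.14, adjusted p = 0.841), which is 1.07-fold lower. Of the 8 ESCRT-I genes, 1 had a positive difference, Vps37c at 0.06, and the median was -0.03. The core subunit Vps28 was at -0.06, and the alternative VPS37 subunits Vps37a and Vps37b were at -0.04 and -0.02. The alternative subunits Mvb12a and Mvb12b were both at -0.01. Ubap1, an alternative subunit suited to endosomal sorting, was at -0.13 (SE 0.10, adjusted p = 0.757), the lowest of the complex, while its dimmer probe set was at 0.03. Dimmer probe sets of Vps37a (0.04 and 0.05) and Vps37c (-0.12) also had signs opposite to their main ones.

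The promoter of Tsg101 is shown because this gene encodes the reported partner of TMBIM1. The sequence, from RefSeq on GRCm38.p6, is the 250 bases before the start site, chr7:46919970-46920219 on the minus strand, 5′ to 3′, with an ETS factor motif (CCGGAAG, searched on both strands) in capitals.
Tsg101: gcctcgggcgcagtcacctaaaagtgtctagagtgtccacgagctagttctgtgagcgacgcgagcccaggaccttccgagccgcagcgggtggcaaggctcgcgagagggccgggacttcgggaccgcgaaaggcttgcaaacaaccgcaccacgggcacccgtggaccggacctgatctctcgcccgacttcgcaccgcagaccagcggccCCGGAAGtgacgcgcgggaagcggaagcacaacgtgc
The motif starts 37 bases before the start site. RefSeq promoters were matched for 27 of the 35 genes (29 start sites), and 4 of the 29 held this motif (13.8%), those of Tsg101, Chmp5, Tollip and Usp8. It was in 6.91% of all 32851 promoters and in 13.4% of the 9191 promoters of genes within the members' signal range. The GC content of the ESCRT promoters had a median of 60.0%, against 60.4% in that signal range and 52.4% over all promoters.

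ESCRT-II bridges ESCRT-I to ESCRT-III. Its subunits Snf8 and Vps36 were at 0.05 (SE 0.11) and 0.06 (SE 0.11), and the 2 dimmer probe sets of Vps36 were at 0.06 and 0.09. Vps25, the subunit that contacts ESCRT-III, was at -0.15 (SE 0.15, adjusted p = 0.818). Its signals were 5.26, 5.26 and 4.89 in wild type and 4.70, 5.25 and 5.01 in knockout hearts, so each group had a high and a low heart.

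ESCRT-III proteins, the CHMP family and IST1, polymerise on the membrane and cut the neck of the budding vesicle. Of the 11 genes, 10 had a positive difference, with a median of 0.07, but 0 passed by limma after adjustment and 0 had an unadjusted p under 0.05. Chmp3, an inner-layer subunit that helps end polymer growth, had the largest difference, 0.29 (SE 0.13, adjusted p = 0.481). It stood at 6.67, 6.96 and 6.47 in wild type and 6.95, 7.11 and 6.90 in knockout hearts. Wild type replicate 2 reached the knockout values, and wild type replicate 3 was the lowest of the 6. A second probe set of Chmp3 had a similar difference (0.22), and the dimmest, near the floor of the scale, was at -0.11.

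Chmp2b, which works with Chmp3 and recruits the VPS4 ATPase, was at 7.74, 8.19 and 8.10 in wild type and 8.21, 8.28 and 8.25 in knockout hearts. The groups did not overlap, by the narrow gap between 8.19 and 8.21, and the wild type spread came mainly from replicate 1. The difference was 0.23 (SE 0.12, adjusted p = 0.572). Its second probe set was also wholly higher in knockout hearts, at 7.62, 7.66 and 7.67 against 7.54, 7.59 and 7.22, with a difference of 0.20 (SE 0.11, adjusted p = 0.612). In that probe set replicate 3, not replicate 1, was the low wild type heart.

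Chmp4b, the main filament-forming subunit, had signals of 9.94, 10.05 and 10.02 in wild type and 10.15, 10.09 and 10.11 in knockout hearts. Its groups did not overlap, yet the difference was 0.11 (SE 0.09, adjusted p = 0.752). Its second probe set was at 8.63, 8.81 and 8.65 in wild type and 8.77, 8.69 and 8.87 in knockout hearts. There the groups overlapped, with a difference of 0.08 (SE 0.10, adjusted p = 0.866). Chmp5, which binds the VPS4 activator VTA1, stood at 8.75, 9.11 and 8.74 in wild type and 8.97, 9.21 and 9.08 in knockout hearts, a difference of 0.22 (SE 0.12, adjusted p = 0.609) with overlapping groups. Chmp1b, which also binds the microtubule-severing enzyme spastin, was at 0.15 (SE 0.15) and its relative Chmp1a at 0.04 (SE 0.12). Chmp2a, the relative of Chmp2b, was at 0.02, Chmp4c, which acts in the abscission checkpoint of cell division, at 0.07 and Chmp6, which links ESCRT-II to the polymer, at 0.03. Ist1, which co-polymerises with CHMP1B, was at 0.01. Chmp7, a subunit of nuclear envelope sealing, was the 1 ESCRT-III gene with a negative difference, -0.09 (SE 0.09), and its second probe set was at -0.07.

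The positive values of ESCRT-III were close to zero at their median once 1 wild type heart was left out. Wild type replicate 3 was the lowest of the 6 arrays in 5 of the 11 genes (Chmp1b, Chmp3, Chmp4c, Chmp5 and Chmp6) and the highest in 0, where over all main probe sets it was lowest in 21.2% and highest in 20.6%. Without it the ESCRT-III median fell to 0.0053, and 7 of the 11 genes were positive. With any other single array left out, the median ranged from 0.06 to 0.11. Without wild type replicate 3 Chmp3 was at 0.17 and Chmp5 at 0.15, while Chmp2b was at 0.28 and Chmp4b at 0.12. On the first principal component of all probe sets, which held 37.4% of the variance, that array lay at -37.0, the farthest out. The other wild type arrays were at -8.48 and -9.65, and the knockout arrays at 23.41, 20.66 and 11.04. The groups thus lay on opposite sides of zero, with wild type replicate 3 at the wild type end.

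**Figure D3:**
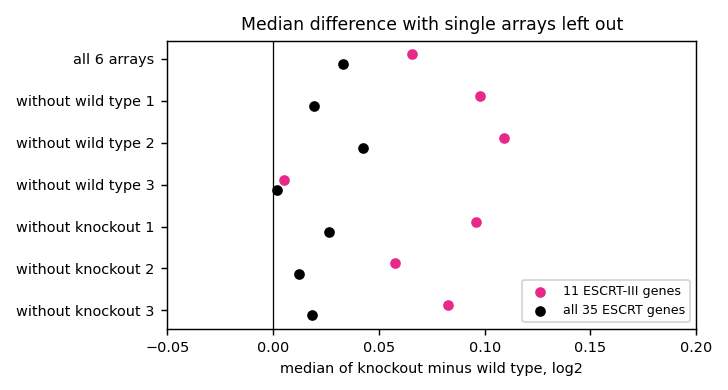
Median of knockout minus wild type (log2) over the 11 ESCRT-III genes and over all 35 genes, with all 6 arrays and with each array left out. Both medians come closest to zero without wild type replicate 3, at 0.0053 and 0.0019.

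VPS4 is the ATPase that pulls ESCRT-III filaments apart and recycles them, and its related forms Vps4a and Vps4b had differences of opposite sign. Vps4a was at 7.89, 8.03 and 8.01 in wild type and 7.76, 7.81 and 7.82 in knockout hearts. All 3 knockout hearts were below all 3 wild type hearts, and the difference was -0.18 (SE 0.09, adjusted p = 0.554), or 1.13-fold lower. Vps4b was at 8.58, 8.60 and 8.28 in wild type and 8.57, 8.69 and 8.58 in knockout hearts, with overlapping groups and a difference of 0.12 (SE 0.11, adjusted p = 0.792). Without wild type replicate 3, the low heart of that group, Vps4b was at 0.02 and Vps4a at -0.16. Whether the differences of Vps4a and Vps4b differ from each other was not tested. Vta1, the activator of VPS4, was at 0.07 (SE 0.10).

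Vps4a was the 1 ESCRT gene whose knockout values all lay below the wild type ones. With Chmp2b, Chmp4b and Pdcd6ip, whose knockout values all lay above, 4 of the 35 genes had groups that did not overlap (11.4%), where 16.7% of all main probe sets did.

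**Figure D4:**
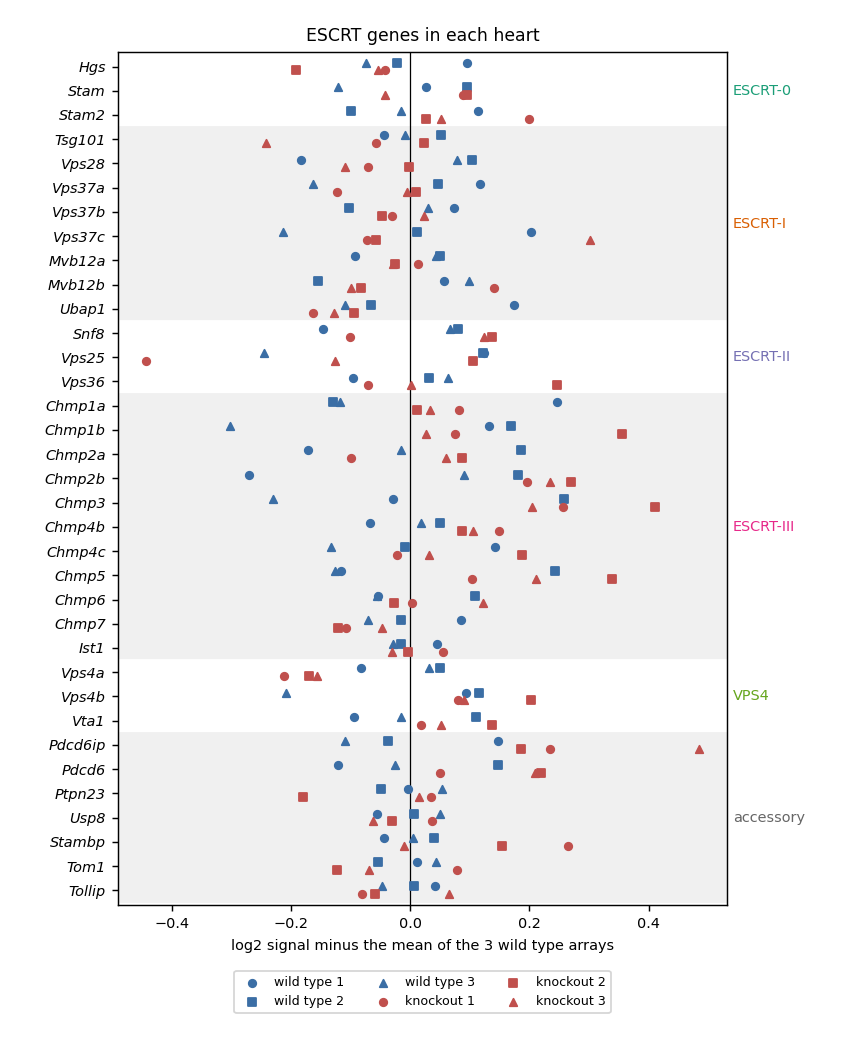
Log2 signal of each gene in each heart, minus the mean of its 3 wild type arrays (blue, wild type; red, knockout; the marker shape gives the replicate number). Values run from -0.44 (Vps25, knockout replicate 1) to 0.48 (Pdcd6ip, knockout replicate 3), and for most genes the red and blue points interleave.

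Among the accessory genes, Pdcd6ip gave the largest difference of all 35, but its probe sets disagreed. It encodes ALIX, an adaptor that joins cargo and TSG101 to CHMP4 filaments. The main probe set stood at 7.25, 7.07 and 6.99 in wild type and 7.34, 7.29 and 7.59 in knockout hearts. The knockout values were all higher, with a difference of 0.30 (SE 0.12, 95% interval 0.04 to 0.56, unadjusted p = 0.0266, adjusted p = 0.379). The probe set that was the third in brightness leaned the other way, at 5.87, 5.83 and 5.61 in wild type and 5.62, 5.44 and 5.53 in knockout hearts. Its groups overlapped slightly, and its difference was -0.24 (SE 0.11, unadjusted p = 0.0480, adjusted p = 0.467). The second in brightness, with a wild type mean of 6.48, was at -0.01. The dimmest ones, with wild type means of 2.90 and 2.12 near the floor of the scale, were at -0.03 and 0.06. Neither direction held across the 3 brightest probe sets. The mean over all 5 probe sets, the dimmest included, gave 0.02 (adjusted p = 0.970). Which stretches of the transcript the probe sets read was not analysed here.

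**Figure D5:**
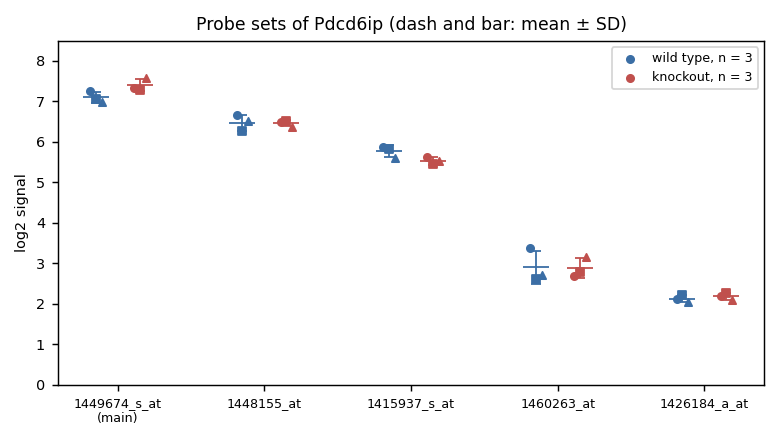
Log2 signal of the 5 probe sets of Pdcd6ip in each heart, with mean ± SD (n = 3 per group; the marker shape gives the replicate number). The main probe set is higher in knockout hearts (7.41 against 7.10), the third in brightness is lower (5.53 against 5.77) and the other 3 overlap.

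The promoter of Pdcd6ip is shown because it was the 1 of the 29 ESCRT promoters (3.45%) with a CACGTG motif, the core of the site bound by TFEB, a regulator of lysosomal genes. The motif reads the same on both strands. The sequence is from RefSeq, GRCm38.p6, chr9:113708260-113708509 on the minus strand, 5′ to 3′, with the motif in capitals.
Pdcd6ip: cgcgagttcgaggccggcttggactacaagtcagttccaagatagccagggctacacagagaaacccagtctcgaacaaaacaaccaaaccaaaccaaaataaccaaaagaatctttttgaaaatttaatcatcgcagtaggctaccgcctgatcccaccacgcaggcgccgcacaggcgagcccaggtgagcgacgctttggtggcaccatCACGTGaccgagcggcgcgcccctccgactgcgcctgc
The motif starts 38 bases before the start site. It was in 6.02% of all promoters and in 8.54% of those of genes within the members' signal range.

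Pdcd6, a calcium-binding partner of ALIX also known as ALG-2, was at 0.16 (SE 0.11, adjusted p = 0.685), and its groups overlapped because wild type replicate 2 was above knockout replicate 1. Usp8 and Stambp encode deubiquitinases that remove ubiquitin from cargo. Usp8 was at -0.02 (SE 0.09), with a much dimmer probe set at 0.27 (unadjusted p = 0.0258, adjusted p = 0.374) whose knockout values were all higher. Stambp was at 0.14 (SE 0.10). Ptpn23, an ALIX-like adaptor, was at -0.04, and the alternative cargo adaptors Tom1 and Tollip were at -0.04 and -0.03, none of which passed.

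Beside the main ones, the array held 41 further probe sets for 23 of the genes, and 21 of the 41 had a sign opposite to the main one, in 14 genes. None of the 76 probe sets passed by limma after adjustment, and 3 had an unadjusted p under 0.05, the 2 of Pdcd6ip and the dim one of Usp8.

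Genes that act before, beside and after ESCRT also had 0 calls by limma, where 0.549% of all main probe sets passed. A count of 0 is near that share for lists of this size. Of 79 gene names in 6 lists, 73 were measured and the others were not analysed here. At an unadjusted p under 0.05 by limma were 12 of them (16.4%), 7 higher and 5 lower in knockout hearts. That share was 11.5% for all main probe sets and 16.3% for those within the ESCRT genes' range of mean signal. The median difference of the 73 genes was -0.0096. Among 13 cargo ubiquitination genes the median was -0.0081. The ubiquitin ligase gene Nedd4l was at -0.25 (adjusted p = 0.383), the NEDD4-binding adaptor Ndfip2 at 0.25 (adjusted p = 0.444) and the deubiquitinase Usp9x at -0.18 (adjusted p = 0.665). Among 19 other ESCRT-linked genes the median was -0.0031. Sdcbp, encoding syntenin, which binds ALIX in exosome formation, was at 0.27 (SE 0.11, adjusted p = 0.399), with knockout hearts at 10.10, 10.06 and 9.93 all above wild type hearts at 9.78, 9.89 and 9.61. Lgals3, the lectin galectin-3, was at 1.92 (SE 0.50, adjusted p = 0.176), and Spg20, which encodes spartin, at -0.23 (adjusted p = 0.467).

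Endosomal phosphoinositide genes had a median of -0.08 over 12 members, 4 of them at an unadjusted p under 0.05. The 3-phosphatase gene Mtm1 was at -0.63 (SE 0.15, adjusted p = 0.137), with knockout hearts at 5.52, 5.94 and 5.92 all below wild type hearts at 6.40, 6.22 and 6.67. Vac14, the scaffold of the PIKfyve complex, was at -0.48 (SE 0.14, adjusted p = 0.239), and the phosphatase gene Mtmr4 at -0.34 (adjusted p = 0.433). The fourth was the early endosome tether Eea1, at 0.26 (adjusted p = 0.453).

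HOPS and CORVET tethers, which join endosomes to lysosomes and to one another, were positive in 1 of 10 genes with a median of -0.05 and 0 at an unadjusted p under 0.05. Vps33a, Vps16 and Vps8 were at -0.23, -0.19 and -0.13. Retromer genes, which retrieve cargo away from degradation, had a median of -0.0077 over 10 members, with Snx27 at -0.19, Vps26b at -0.15 and Vps29 at 0.20. Membrane proteins of multivesicular bodies and exosomes had a median of 0.10 over 9 members. Anxa2, a membrane-binding annexin, was at 0.60 (SE 0.12, adjusted p = 0.0797), with all 3 knockout hearts (10.34, 10.31 and 10.24) above the wild type ones (9.75, 9.88 and 9.47). The tetraspanin gene Cd9 was at 0.36 (SE 0.12, adjusted p = 0.305), and Tspan8, with signals between 2.71 and 3.25, was at 0.31 (adjusted p = 0.311).

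Markers of cell types and of handling stress were followed in the same hearts, and their part in the ESCRT values was not tested. Their counts below an unadjusted p of 0.05 by limma stand beside 11.5% of the main probe sets of all genes. Cardiomyocyte markers were negative in 10 of 10 genes, of which 0 passed by limma and 1 was below an unadjusted p of 0.05, and their summed linear signal was 89517 to 92149 in wild type and 82926 to 85589 in knockout hearts. Macrophage and monocyte markers were positive in 10 of 12 genes, of which 0 passed by limma and 6 were below an unadjusted p of 0.05, with sums of 2978 to 3894 and 3878 to 4426. Fibroblast markers rose in 1 of 10 genes, Col3a1 (sums 11475 to 16667 and 17473 to 19385), atrial markers in 1 of 6, Nppa (3766 to 6634 and 10586 to 34558) and heat shock genes in 2 of 8, Hspa1a and Hspa1b (11767 to 12405 and 14634 to 14981). Below an unadjusted p of 0.05 were 6 of 10 fibroblast markers, 5 higher and 1 lower, 1 of 6 atrial markers and 6 of 8 heat shock genes, all 6 higher. The lowest log2 level of a marker in any array was 9.86 for cardiomyocyte, 4.26 for macrophage and 6.43 for fibroblast markers. It was 1.98 for red blood cell, 2.42 for atrial and 2.58 for T and NK cell markers, near the floor of the scale. Of the other marker lists no gene passed, and 2 of 4 neutrophil, 2 of 7 smooth muscle and pericyte, 1 of 3 red blood cell, 0 of 6 T and NK cell and 0 of 8 endothelial genes were below an unadjusted p of 0.05. Their median differences were 0.47, 0.06, 0.10, -0.07 and -0.07 in that order. The neutrophil genes were S100a9 at 1.32 (SE 0.25, adjusted p = 0.0641) and S100a8 at 0.95 (SE 0.21, adjusted p = 0.109), each higher in all 3 knockout hearts than in any wild type heart. Csf3r and Cxcr2, also on the neutrophil list, were both at -0.02, so the list median of 0.47 describes none of its genes. Among smooth muscle genes Cnn1 was at 1.42 (SE 0.57, adjusted p = 0.411) and Tagln at 0.88 (SE 0.24, adjusted p = 0.20). Both were highest in knockout replicate 1, with knockout hearts at 8.08, 5.32 and 5.54 for Cnn1 and 9.11, 7.94 and 8.33 for Tagln. The others on that list were Acta2 at 0.40, Rgs5 at 0.06, Pdgfrb at 0.05, Myh11 at -0.05 and Cspg4 at -0.08. The atrial gene Myl7 was at 12.86 in knockout replicate 1 and between 3.45 and 3.90 on the other arrays. Myl4 and Sln were at 12.98 and 12.17 in knockout replicate 1, and at most 4.87 and 2.77 on the other arrays. Dkk3 and Bmp10 were also highest in knockout replicate 1, and the highest atrial sum, 34558, was that of this heart. Nppa was higher in all 3 knockout hearts (13.78, 13.63 and 13.36) than in any wild type heart (12.67, 12.67 and 11.85).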

How the data were processed

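Affymetrix arrays of 6 hearts were used, 3 per genotype, each from biotin-labelled cRNA made from 400 ng of RNA. The authors deposited a log2 signal for each probe set. RMA and limma were used, per the submitters' processing notes (versions: not given in the sources used here). Normalization by RMA makes array distributions alike, which can remove a shift shared by all genes and compress differences at both ends of the scale. Array medians lay between 4.24 and 4.28.

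Of 38208 probe sets, 13 controls were left out. The platform annotation gave 34325 of the other 38195 a single symbol, 62 several and 3808 none. Knockout minus wild type was fitted with limma 3.58.1 in R 4.3.3 (lmFit, eBayes, two-sided), with Benjamini-Hochberg adjustment over all 38195 probe sets. Every adjusted p comes from this fit unless stated, and intervals are 95% from its moderated SE. The fit was tested on simulated data, in which the planted changes were larger than the difference of any ESCRT gene. That test does not show how well differences as small as those of the ESCRT genes are detected. The number of arrays limits the precision. The SEs and p-values are moderated, so the variance of each probe set between these mice is drawn toward a value estimated from all probe sets. Intervals of genes with a wide spread, such as Vps25 and Chmp3, are narrowed by it. Those of genes with a narrow spread, such as Vps4a and Chmp4b (SD within groups 0.055 and 0.048), are widened by it.

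The members and lists were chosen with earlier results of these data known. Named were all 35 members, Tmbim1 and, per list, every gene past the threshold or otherwise up to 3 with the smallest unadjusted p. Eea1, the marker genes named and further member values by array were chosen after their values were seen. Alternatives were other variance priors, array weights, normalizations, a filter on dim probe sets (below the 40th percentile), 1 probe set or the mean of probe sets per gene, a replicate block and each array left out. Leaving out knockout replicate 1 together with wild type replicate 3, and all alternatives for ESCRT-III alone, were added after seeing the data.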

Additional observations from a re-analysis of the deposited data

How the results depend on the processing

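No ESCRT gene passed at an adjusted p of 0.05 under any of the 16 alternatives, the smallest adjusted p being 0.212. Of the 35 genes, 18 kept the sign of their difference under all 16. The other variance priors, the replicate block, the filter and 1 probe set per gene leave a member's difference unchanged, so they could not change a sign. The other 17 changed sign under at least 1, and their differences with all arrays were at most 0.07 in size. The count of members at an unadjusted p under 0.05 was 1 and rose to 2 with a robust prior, array weights, a second quantile normalization, the replicate block or the mean of a gene's probe sets. It ranged from 0 to 3 with single arrays left out, being 0 without wild type replicate 3 or knockout replicate 3 and 3 without wild type replicate 2, and was 0 without both knockout replicate 1 and wild type replicate 3. The ESCRT median (0.033) was lowest, 0.0019, without wild type replicate 3 and highest, 0.043, without wild type replicate 2, and was 0.0032 without the 2 arrays together. The ESCRT-III median ranged from 0.0053 to 0.11 with single arrays left out and was 0.04 without the 2 arrays, with 7 to 9 and 8 genes positive. The Tmbim1 difference ranged from -0.96 to -0.83 with single arrays left out, being -0.89 without knockout replicate 2, and was -0.96 (adjusted p = 0.0607) without the 2 arrays. The 161 probe sets past the threshold in all became 102 with 1 probe set per gene and 84 with the mean of probe sets, where fewer features are tested, 38 to 86 with single arrays left out and 29 without the 2 arrays. Whether replicate numbers pair the hearts could not be told from these values. Deviations of same-numbered arrays correlated at 0.06, 0.14 and 0.02, and those of differently numbered arrays at between -0.14 and 0.08. The replicate block gave 168 probe sets. Other causes of these changes were not tested.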
